A study of Mus musculus with 4 samples.

Results

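*Pdgfrb*, *Rgs5*, *Abcc9*, *Vtn*, *Notch3*, *Acta2*, *Myh11* and *Tagln* are 8 of the 32285 genes counted in nuclei of the mouse hindbrain, and were followed in every annotated cell type because they mark the contractile cells of vessel walls. Levels were taken in the 39461 nuclei that the authors kept, of which 806 (2.04%) were annotated as mural cells and lay in 2 clusters, cluster 13 with 706 nuclei and cluster 98 with 100. Mural cells are the pericytes that sit on capillaries and the smooth muscle cells that ring arteries and arterioles. Pericytes are recruited to endothelium by platelet-derived growth factor and are known in the brain for their part in barrier upkeep, whereas smooth muscle cells carry the actin and myosin that set vessel diameter. The first 5 genes are usually read in both cells or mainly in pericytes, and *Acta2*, *Myh11* and *Tagln* encode contractile proteins of smooth muscle.

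Single-nucleus RNA sequencing was carried out on a portion of the posterior hindbrain with the area postrema and the nucleus of the solitary tract. Control mice are labelled WT, while the study's methods give its control group as negative for both recombinases and carrying both receptor alleles unrecombined (AgRP-IRES-Cre-/-;hM3DGqfl/-;POMC-Dre-/-;hM4DGifl/-). AgRP-Gq;POMC-Gi mice carried AgRP-IRES-Cre+/-;hM3DGqfl/- ;POMC-Dre+/-;hM4DGifl/-, so that an excitatory designer receptor is switched on by Cre in AgRP neurons and an inhibitory one by Dre in POMC neurons. Both groups, adults of both sexes aged 12 to 20 weeks, received the receptor ligand clozapine N-oxide (CNO) at 3 mg per kg intraperitoneally, and tissue was taken 1 h later without food. Both drivers of the recombinases are neuronal. The series holds 2 libraries for each group; the labels speak of pooled samples and do not say whether 2 libraries of a group are separate mice, so p-values measure the spread between these libraries, which may be technical.

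The kept nuclei of a library held 48904976 to 53089402 unique molecular identifiers (UMIs, single captured RNA molecules), with 289, 251, 103 and 163 mural nuclei in control 1, control 2, AgRP-Gq;POMC-Gi 1 and AgRP-Gq;POMC-Gi 2. Values per library are given in this order throughout, and a level is given in CPM, the standard unit in which the summed UMIs of a set of nuclei are brought to the same total in every library. The neuronal share was 25.4, 27.2, 38.0 and 36.5%, fibroblasts were 0.740% in control 1 against 1.71 to 3.89% elsewhere, and choroid plexus was nearly absent from the first library of each group. Between 19 and 36 cell barcodes were shared by any pair of libraries, none of them among mural nuclei. A UMI of at least 3 of the first 5 genes was held by 94.4% of mural nuclei against 0.230% of all other kept nuclei. Of 10 endothelial markers, *Flt1* was found in 32.6% of mural nuclei (327 CPM against 5143 in endothelium) and the other 9 in 0.372 to 5.96%. The summed level of all 10 was 411 to 534 CPM by library, of which *Flt1* made 284 to 385. Of 10 fibroblast markers, *Slc6a13* was found in 11.0%, *Col1a2* in 7.82%, *Dcn* in 5.46% and the others in smaller shares, with *Ranbp3l* at 0 and a summed level of 159 to 243 CPM.

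Cell types and clusters were built from expression, so levels across them are a description without a test. Mean levels were highest in mural cells for 7 of the 8 genes, and the exception was *Tagln*.

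**Figure D1:**
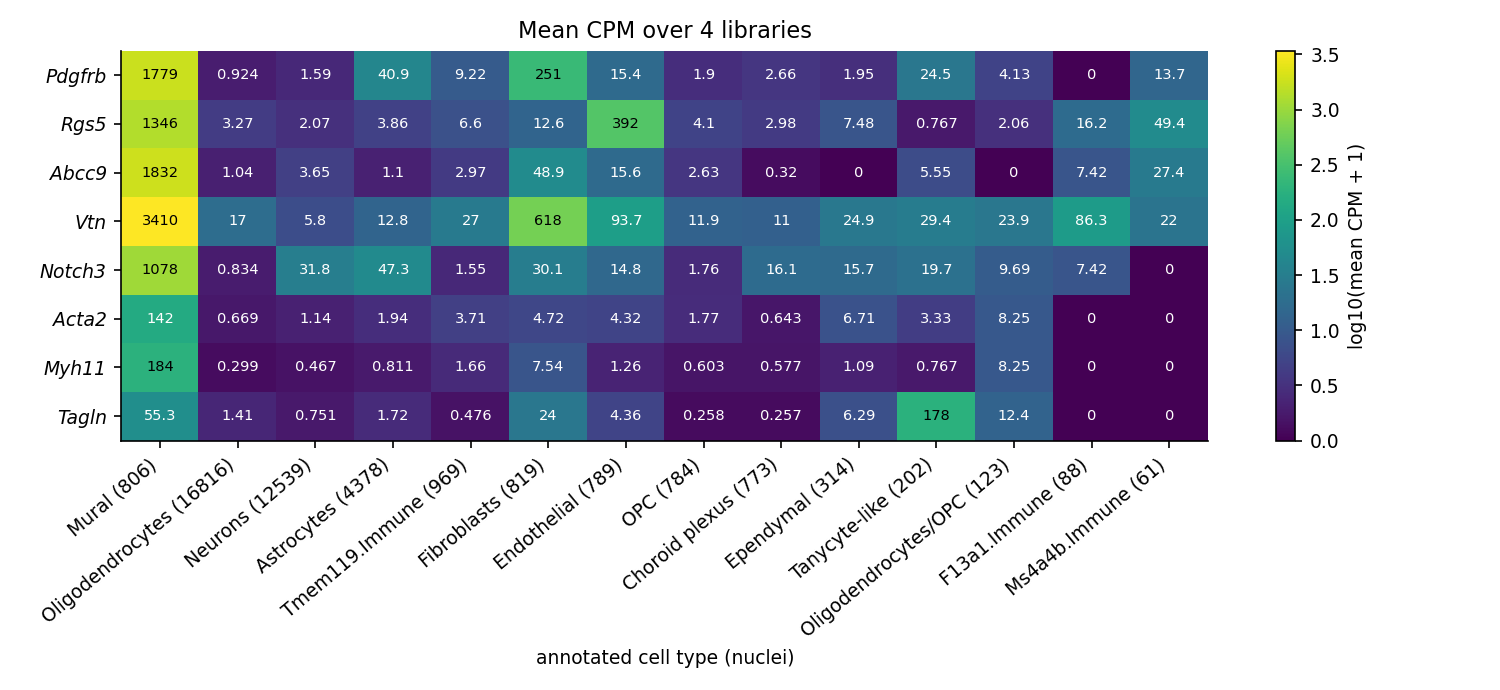
Mean CPM over the 4 libraries of each gene (rows) in each annotated cell type (columns, with the number of nuclei), coloured by log10(mean CPM + 1). The mural column is the brightest for 7 genes, and *Tagln* is brightest in Tanycyte-like nuclei (178 CPM against 55.3 CPM in mural nuclei).

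*Pdgfrb* encodes the receptor for platelet-derived growth factor B through which pericytes are recruited. It stood at 1734, 1721, 1900.1 and 1761 CPM in mural nuclei, a mean of 1779 ± 82.6 (SD, n = 4), with a UMI in 89.8% of them. All 4 libraries lay close together. Fibroblasts came next at 251 ± 64.2 CPM and astrocytes after them at 40.9 ± 8.73, so that mural nuclei exceeded fibroblasts 7.09-fold. In oligodendrocytes, which serve here as background, 0.250% of nuclei held a UMI although their median depth was greater (2460 against 1520.5 UMIs). Endothelial nuclei, the other cells of the capillary wall, held 15.4 ± 3.44 CPM. Among the 5 fibroblast clusters *Pdgfrb* ran from 25.5 to 361 CPM, with the highest level in cluster 44, and every one of the 11 astrocyte clusters held it, from 19.9 to 62.7 CPM.

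*Rgs5* encodes a regulator of G protein signalling that is a widely used pericyte marker. It was at 1302, 1370.4, 1271 and 1439.8 CPM in mural nuclei (mean 1346 ± 75.1, SD, n = 4; 77.2% of nuclei). The nearest cell type was endothelium at 365, 295, 518 and 388 CPM (24.8% of nuclei at a median of 1460 UMIs, against 0.838% of oligodendrocytes), and the mural mean was 3.44 times as high. This endothelial signal was uneven. It came to 979 CPM in endothelial cluster 32, where 52.2% of 203 nuclei held a UMI, and to 22.0 CPM in endothelial cluster 106. Among the 4 endothelial clusters of at least 50 nuclei, cluster 32 was also the highest for *Vtn* (182 CPM), *Notch3* (35.2), *Abcc9* (32.0) and *Pdgfrb* (16.0). Cluster 32 stood at 1392, 769, 919 and 911 CPM of *Rgs5* in the 4 libraries, so none of them was without it. Outside vessels *Rgs5* was at 49.4 CPM in Ms4a4b.Immune nuclei, from 4 UMIs, at 3.27 CPM in oligodendrocytes and 2.07 in neurons, and its highest neuronal cluster, 86, held 27.4 CPM.

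*Abcc9* encodes SUR2, the regulatory subunit that pairs with the channel protein of *Kcnj8* in the ATP-sensitive potassium channel of pericytes and smooth muscle. Its mural levels were 2008, 1802, 1866 and 1649 CPM (mean 1832 ± 149, SD, n = 4; 79.9% of nuclei). The mural mean was 37.4 times that of fibroblasts, the next cell type. Neurons as a whole held 3.65 ± 0.333 CPM and differed widely between clusters. The median over 111 neuronal clusters of at least 50 nuclei was 1.29 CPM, 38 clusters held no UMI, and cluster 155, marked by *Kcnh8* and *Arhgap6*, reached 91.7 CPM with a UMI in 41.5% of its 53 nuclei. That cluster held 111, 18.6, 167 and 80.0 CPM in the 4 libraries, all above the median of neuronal clusters. Neuronal cluster 49, marked by *Ccbe1* and *Tspan18*, followed with 55.9 CPM.

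*Vtn* encodes vitronectin, an adhesive protein of the extracellular matrix that binds αv integrins. Mural nuclei held 3000.3, 3502, 3834 and 3306 CPM (3410.5 ± 349.7, SD, n = 4; 94.5% of nuclei). Fibroblasts held 306, 796, 745 and 625 CPM, and the lowest of these was control 1, the library with 72 fibroblast nuclei. Most of this came from fibroblast cluster 27, which reached 1699.5 CPM with a UMI in 70.6% of 262 nuclei, whereas fibroblast cluster 93 held 44.6 CPM. The background of *Vtn* was not negligible, with a UMI in 4.51% of oligodendrocytes. Its UMIs in 4.48% of the deeper neuronal nuclei were thus not above background over all neurons. Among 111 neuronal clusters of at least 50 nuclei the median was 4.83 CPM and the highest, cluster 143, held 62.8. Among 13 oligodendrocyte clusters the median was 16.5 CPM and the highest 32.2.

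*Notch3* encodes the Notch receptor of mural cells, whose mutation in people causes the small vessel disease CADASIL. Mural nuclei held 1035, 1076, 1204 and 998.5 CPM (1078 ± 89.4, SD, n = 4; 74.7% of nuclei). Astrocytes followed at 47.3 ± 2.16 CPM and neurons at 31.8 ± 2.58, and oligodendrocytes held 0.834 CPM. Low as this was per nucleus, neurons supplied 61.4% of all *Notch3* UMIs and mural nuclei 22.7%, because neurons are many and deep. None of the 111 neuronal clusters was at 0, and they ranged from 12.1 to 52.9 CPM. A UMI was found in 24.4% of neurons at a median depth of 8704 UMIs, and thinning every nucleus to 800 UMIs left an expected share of 2.43% in neurons, 54.6% in mural nuclei and 0.0671% in oligodendrocytes.

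**Figure D2:**
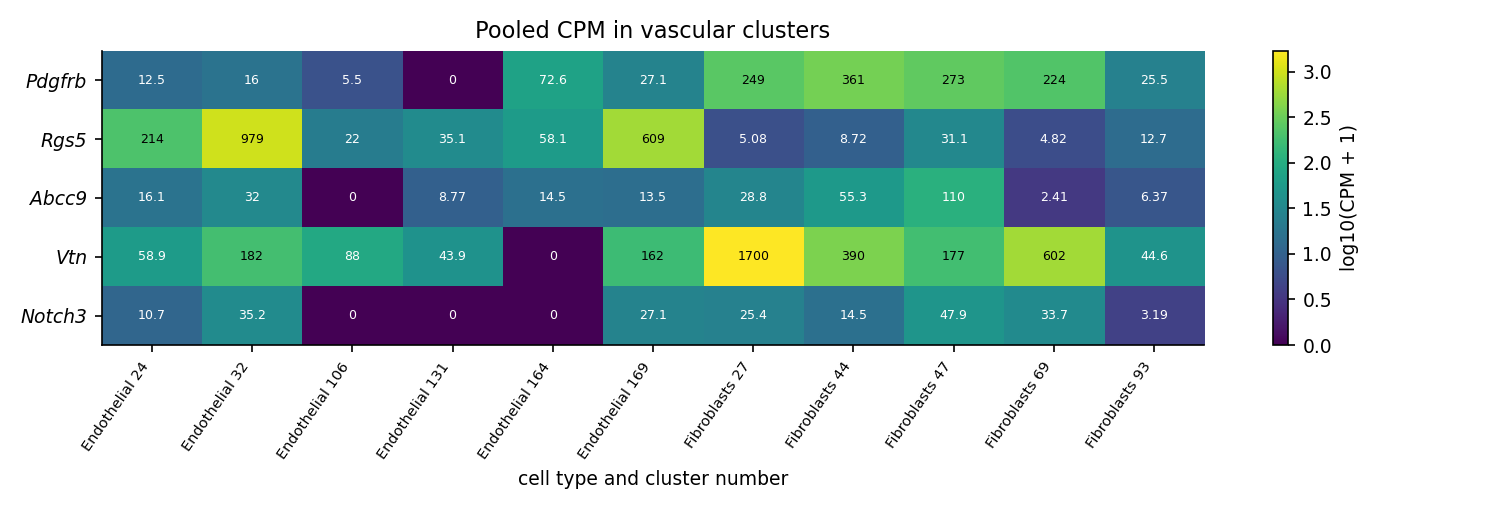
CPM of the first 5 genes, pooled over libraries, in each endothelial and fibroblast cluster (columns), coloured by log10(CPM + 1). *Rgs5* is brightest in endothelial cluster 32 (979 CPM) and *Vtn* in fibroblast cluster 27 (1699.5 CPM).

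The contractile genes were sparse over the whole of the mural nuclei. *Acta2*, smooth muscle α-actin, stood at 138, 133, 183 and 112 CPM with a UMI in 6.45% of mural nuclei (exact 95% binomial interval 4.86 to 8.37%). *Myh11*, the smooth muscle myosin heavy chain, stood at 192, 266, 176 and 101 CPM with a UMI in 18.9% (16.2 to 21.7%). These intervals pool the nuclei of all libraries and cover counting error only, not the spread between libraries. By library the share was 5.54, 8.76, 4.85 and 5.52% for *Acta2* and 21.1, 22.7, 16.5 and 10.4% for *Myh11*. Their next cell type, the small Oligodendrocytes/OPC group, held 8.25 CPM of each, all of it from 1 nucleus of cluster 138 in control 2. For *Acta2* the mural mean was 17.2 times and for *Myh11* 22.3 times as high.

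*Tagln*, which encodes the actin-binding protein transgelin, was at 28.0, 72.4, 60.9 and 59.8 CPM in mural nuclei and in 3.72% of them. Tanycyte-like nuclei held more, 20.5, 299.8, 160.3 and 233 CPM (mean 178 ± 120, SD, n = 4; 18.8% of 202 nuclei). Control 1 was the low library, with 2 UMIs in 26 nuclei, and lay below its own mural level, while the other 3 lay above theirs. Cluster 61, one of the 2 Tanycyte-like clusters, carried this at 257 CPM and 24.6% of its 142 nuclei against 28.9 CPM in cluster 141. *Acta2* and *Myh11* did not accompany it, with 2 UMIs and 1 UMI in all Tanycyte-like nuclei.

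Within mural cells the contractile genes divided the 2 clusters, and since the clusters were made from these same nuclei no test is given.

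**Figure D3:**
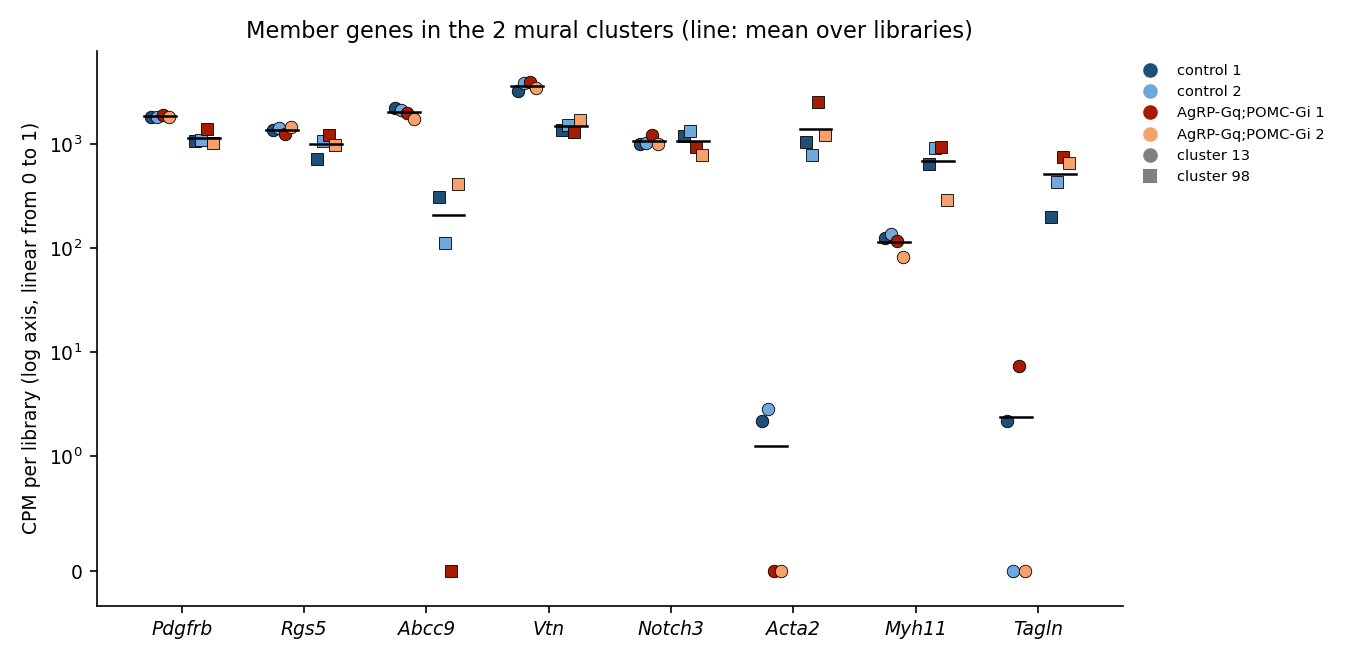
CPM of each gene per library (coloured points) in cluster 13 (circles) and cluster 98 (squares), on an axis that is linear from 0 to 1 and logarithmic above; black lines are means over libraries. *Acta2*, *Myh11* and *Tagln* lie higher in cluster 98 in every library, and *Notch3* overlaps.

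*Acta2* was at 2.15, 2.80, 0 and 0 CPM in cluster 13, which is 2 UMIs in 706 nuclei, and at 1045, 789.7, 2551 and 1241 CPM in cluster 98. *Tagln* was likewise at 2 UMIs in all of cluster 13 and at 200.5, 437, 756 and 662 CPM in cluster 98. The groups of values do not overlap. Of 5365 genes with at least 50 UMIs in mural nuclei, *Acta2* and *Tagln* held ranks 1 and 2 in the excess of cluster 98 on the log2(CPM + 1) scale and *Myh11* rank 25. For comparison, 7.79% of these genes were higher in cluster 98 in all 4 libraries and 14.6% higher in cluster 13. *Acta2* and *Tagln* reached 50 UMIs only through cluster 98, with 186 of 188 and 69 of 71 mural UMIs there. Their ranks are a description and no support for the split.

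*Myh11* differed from its partners in that it was not limited to cluster 98. It was at 125, 137, 117 and 82.2 CPM in cluster 13 and at 644, 917, 945 and 289.5 CPM in cluster 98, a mean 6.07 times as high. In cluster 13, 14.4% of nuclei held a *Myh11* UMI, against 0.0773% of oligodendrocytes at greater depth, and none of these 102 nuclei held *Acta2*. Cluster 13 contributed 143 of the 270 *Myh11* UMIs of mural cells.

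*Abcc9* moved the other way, at 2262, 2137.5, 2010.2 and 1772 CPM in cluster 13 and 315, 113, 0 and 414 CPM in cluster 98. It was 9.72 times higher in cluster 13, which held 2524 of its 2564 mural UMIs, and ranked 5346 of the 5365 genes by the excess of cluster 98. The 0 came from 7 nuclei. *Vtn* was 2.44 times, *Pdgfrb* 1.60 times and *Rgs5* 1.38 times higher in cluster 13, and in each the lowest library of cluster 13 lay above the highest of cluster 98. *Notch3* alone among the 8 overlapped, at 1008, 1024, 1224 and 1019.6 CPM in cluster 13 and 1217, 1339.6, 945 and 786 CPM in cluster 98.

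Counted nucleus by nucleus, all 5 of *Pdgfrb*, *Rgs5*, *Abcc9*, *Vtn* and *Notch3* were found together in 50.3% of cluster 13 and 12.0% of cluster 98, at median depths of 1503 and 1597 UMIs. In cluster 98, 71 nuclei held at least 1 of the 3 contractile genes, 43 at least 2 and 14 all 3. The 29 nuclei with none of them had more *Abcc9* (562 against 115 CPM) and *Vtn* (2134 against 1275 CPM) than the 71, and held no UMI of *Pecam1* or *Cldn5*, which were found in 2.82% and 5.63% of the 71, while the endothelial marker *Flt1* was found in 24.1% of the 29 and 16.9% of the 71. Of the 10 fibroblast markers, *Dcn* (157 and 23.0 CPM) and *Col1a2* (76.3 and 46.4) were higher in cluster 98 than in cluster 13 in all 4 libraries, *Slc6a13* was lower in all 4 (10.7 and 97.3), and 6 had no UMI in cluster 98. Whether nuclei of other vessel cells have a part in cluster 98 was not tested.

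Other genes of the same cells were read from lists of 15 pericyte genes, 21 contractile genes and 18 partners of the members. Of the pericyte genes, 8 were higher in cluster 13 in all 4 libraries and 0 in cluster 98. Of the 5365 genes with at least 50 UMIs in mural nuclei, 14.6% and 7.79% were so, but the lists have no such floor. The clusters were made from these same nuclei and the lists were chosen with earlier results known. Such counts are therefore a description and no support for the split. Among the highest in mural nuclei were *Atp13a5*, a P5-type transport ATPase, at 3891 ± 228 CPM, the transcription factor *Ebf1* at 3270.4 ± 242 and the amino acid transporter *Slc6a20a* at 1044 ± 116 (SD, n = 4). *Slc6a20a* was as high in fibroblasts, at 1140 CPM. *Ebf1* was also at 1852 CPM in endothelial nuclei, 1007 in fibroblasts and 529 in neurons. Within mural nuclei it was at 3295 CPM in cluster 13 and 3084 in cluster 98. *Kcnj8*, the channel partner of *Abcc9*, was at 565 CPM in cluster 13 and 87.4 in cluster 98, the same direction in all 4 libraries.

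Of the contractile genes 9 were higher in cluster 98 in all 4 libraries and 1, *Cald1*, in cluster 13. The shares over the 5365 genes were 7.79% and 14.6%, and these counts too are a description. The highest in mural nuclei were *Cald1* (caldesmon) at 2212 ± 130 CPM, the phosphodiesterase *Pde3a* at 583 ± 67.4, the myosin light chain kinase *Mylk* at 388 ± 46.5 and the myosin light chain *Myl9* at 280.0 ± 24.0 (SD, n = 4). *Pde3a* held 420.5 CPM in cluster 13 and 1825 in cluster 98. *Myocd*, the coactivator of serum response factor at smooth muscle genes, held 4.29 and 208 CPM. *Cnn1* (calponin) had no UMI in the 706 nuclei of cluster 13 and 4 in cluster 98.

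Among the partners, *Rgs4* stood at 378 ± 52.1 CPM, *Notch1* at 194 ± 25.3, the integrin subunit *Itgb5*, which pairs with αv, at 168 ± 27.7, and the Notch target *Hey2* at 132 ± 22.0 in mural nuclei (SD, n = 4). The ligand of *Pdgfrb*, *Pdgfb*, was at 237 CPM in endothelial and 7.06 CPM in mural nuclei, and the Notch ligand *Dll4* at 39.3 and 2.33 CPM. A further Notch ligand, *Jag1*, was at 43.3 CPM in endothelial and 72.1 CPM in mural nuclei. *Kcnj11* and the integrin subunit *Itgb3* had no UMI in mural nuclei.

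Promoter sequence was at hand for 5 of the 8 genes, *Rgs5*, *Abcc9*, *Vtn*, *Notch3* and *Acta2*, as 250 bases before to 50 after the start in RefSeq (GRCm38.p6). *Pdgfrb*, *Myh11* and *Tagln* were not matched. The window of *Acta2*, the gene with the greatest excess in cluster 98, is on the minus strand at chr19:34255324-34255623 and that of *Abcc9*, the member with the greatest excess in cluster 13, on the minus strand at chr6:142702225-142702524. Both are shown 5′ to 3′, with capitals marking relaxed CArG boxes in *Acta2* and the MEF2 motif in *Abcc9*.
Acta2: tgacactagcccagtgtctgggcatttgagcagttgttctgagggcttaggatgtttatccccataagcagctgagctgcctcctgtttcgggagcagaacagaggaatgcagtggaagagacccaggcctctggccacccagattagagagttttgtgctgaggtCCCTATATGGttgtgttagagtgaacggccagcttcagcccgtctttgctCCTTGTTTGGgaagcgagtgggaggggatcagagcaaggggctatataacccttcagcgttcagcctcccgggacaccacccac
Abcc9: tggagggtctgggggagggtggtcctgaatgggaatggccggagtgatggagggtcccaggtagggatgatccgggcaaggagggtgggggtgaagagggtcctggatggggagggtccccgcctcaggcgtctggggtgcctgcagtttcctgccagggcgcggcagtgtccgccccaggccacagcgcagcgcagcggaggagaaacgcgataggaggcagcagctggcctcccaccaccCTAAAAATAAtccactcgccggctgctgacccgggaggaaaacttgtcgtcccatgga

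The CArG box, the site that serum response factor binds at contractile genes, was searched on both strands in its strict form, with 6 A or T between CC and GG, and in a relaxed form, in which 1 of these 6 bases is C or G. *Acta2* held 2 of the second form, beginning at -84 and -34 from the RefSeq start, a form found in 8.49% of 32841 promoters of the same length. The GENCODE gene given below begins further upstream, at 34255590 on the minus strand. By those coordinates both matches lie inside the gene. The strict form, in 1.63% of promoters, was in none of the 5. A MEF2 motif, in 3.19% of promoters, was found once, in *Abcc9*. TGGGAA, the core read by the Notch effector RBPJ, occurs in 25.6% of promoters and was met in *Vtn* (3 times), *Abcc9* and *Acta2*, where it overlaps the second CArG match, while TATAAA, in 13.6%, was met in *Vtn* alone; the pair of matches in *Vtn* overlap. These letters in a window are a description and not a binding site.

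Gene positions were read from GENCODE M21 (GRCm38), and *Pdgfrb* is on chromosome 18. *Rgs5* lies on chr1:169655501-169695813 and *Vtn* on chr11:78499091-78502324, both on the plus strand, and *Acta2* on chr19:34241090-34255590 and *Myh11* on chr16:14194535-14291372, both on the minus strand. The remaining genes with an overlapping gene on the opposite strand were *Abcc9* (chr6:142587862-142702315, minus), *Notch3* (chr17:32120820-32166852, minus) and *Tagln* (chr9:45929619-45936058, minus). Whether UMIs were counted by strand is not given in the sources used here, and whether reads of a gene and its antisense partner are mixed was not tested. The antisense *5330439B14Rik* stood at 53.7 CPM in mural nuclei beside 1832 CPM of *Abcc9*, and *Gm17276* at 392 CPM beside 1078 CPM of *Notch3*. In neurons *Gm17276* was at 99.0 CPM beside 31.8 CPM of *Notch3*, and it was found in 67.5% of the neurons with a *Notch3* UMI against 53.7% of all neurons. *Tagln* has 2 partners. In Tanycyte-like nuclei, where *Tagln* held 135 UMIs, *Gm48529* held 1 UMI and the protein-coding *Pcsk7*, which shares 108 bases with *Tagln*, held 74 (98.4 CPM) and was found in 42.1% of the *Tagln*-positive nuclei against 26.7% of all. In mural nuclei *Pcsk7* was at 67.7 CPM. The shares among *Notch3*-positive and *Tagln*-positive nuclei were not matched for depth, so they do not show a link between the transcripts.

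Likeness was measured as Pearson's r of log2(CPM + 1) over 159 annotated clusters of at least 50 nuclei, pooled over libraries, among 5365 genes. Clusters share libraries and differ widely in depth, so r is a description. Among the nearest genes were *Atp13a5* (0.77) and *Col1a2* (0.76) for *Pdgfrb*, and *Igfbp7* (0.73), *Crip1* (0.72) and *Tbx3* (0.71) for *Rgs5*. *Vtn* was most like *Cp* (0.79), *Laptm4a* (0.78) and *Plekhg2* (0.78). For *Notch3* and *Abcc9* the nearest gene was the overlapping antisense one, *Gm17276* (0.83) and *5330439B14Rik* (0.70), followed by *Carmil1* (0.80) and *Tmem136* (0.79), and by *Tbx3os1* (0.60) and *Lamc3* (0.59). *Acta2* was nearest to *Myh11* (0.54), *Gm6249* (0.54) and *Map3k7cl* (0.53), *Myh11* to *Gm16064* (0.72), *Gm6249* (0.71) and *Gper1* (0.70), and *Tagln* to *Carmn* (0.70), *Ecm2* (0.63) and *Nes* (0.63). Only *Acta2* had another member among its 3 nearest genes.

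Between the groups, mural nuclei were a smaller share of the AgRP-Gq;POMC-Gi libraries, at 2.97, 2.50, 1.06 and 1.64% of kept nuclei. The groups do not overlap. The exact two-sided permutation test gave p = 0.333, the smallest that 2 against 2 libraries allow. The order of the libraries was kept among non-neuronal nuclei and changed among vascular nuclei. Among non-neuronal nuclei the share was 3.98, 3.43, 1.71 and 2.58%, and among vascular nuclei (mural, endothelial and fibroblast) the mural share was 49.9, 28.3, 25.6 and 29.9%, which overlaps between the groups (exact permutation p = 0.667). The vascular total held 72, 391, 186 and 170 fibroblast nuclei and 218, 246, 113 and 212 endothelial nuclei. The part of sorting and dissection in these shares was not tested.

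Cluster 98 was 13.1% and 15.9% of mural nuclei in control and 6.80% and 9.20% in AgRP-Gq;POMC-Gi libraries (38, 40, 7 and 15 nuclei). The groups do not overlap (exact permutation p = 0.333, the smallest possible), but the exact binomial intervals of single libraries do, for example 9.48 to 17.6% in control 1 and 5.24 to 14.7% in AgRP-Gq;POMC-Gi 2. Intervals cover counting error only.

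**Figure D4:**
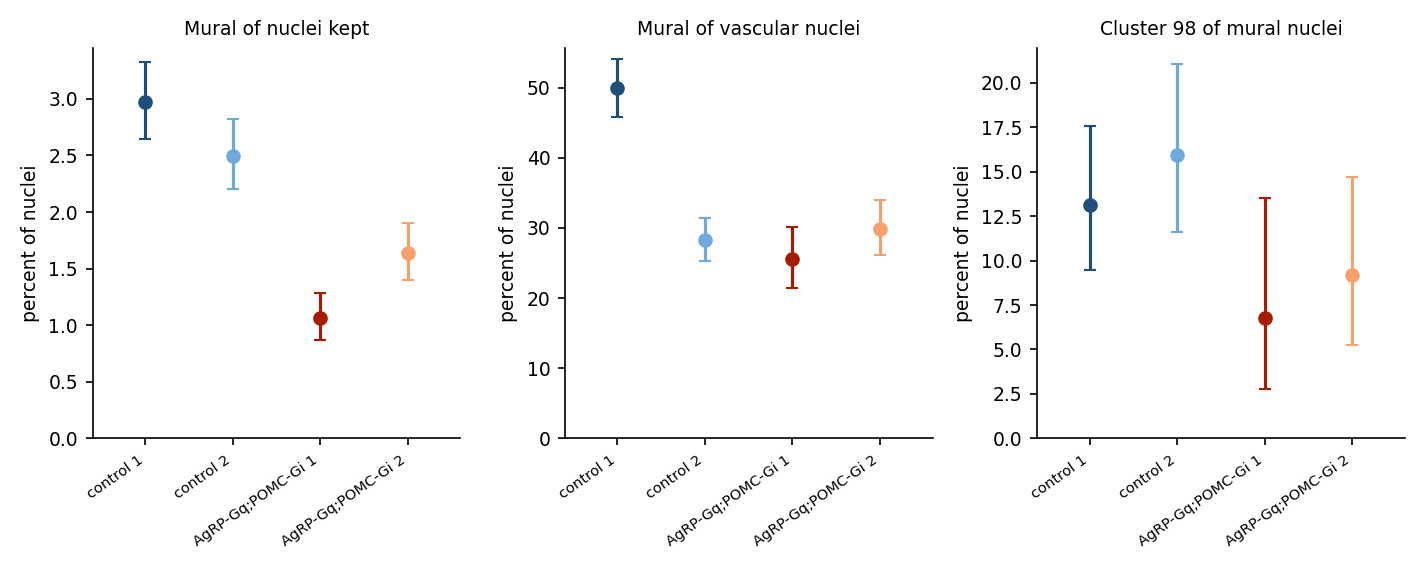
Percent of nuclei per library with exact 95% binomial intervals, for mural among all kept nuclei, mural among vascular nuclei, and cluster 98 among mural nuclei. The outer panels separate the groups, and in the middle one control 1 (49.9%) stands above the other 3 libraries (25.6 to 29.9%).

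The levels of the members in mural nuclei were then compared between groups with edgeR's quasi-likelihood test on UMIs summed per library, adjusted by Benjamini-Hochberg over all genes tested. Of the 7 members tested, 0 passed an adjusted p of 0.05 and 1 an unadjusted 0.05, beside 43 of 5723 genes, or 0.751%, over the whole table (31 higher and 12 lower), and 392 at an unadjusted 0.05. DESeq2 also called 0 members, beside 5 of 5723 genes (0.0874%). *Tagln*, detected in under 5% of mural nuclei, was not tested. *Pdgfrb*, *Rgs5*, *Abcc9*, *Vtn*, *Notch3* and *Acta2* had log2 fold changes between -0.07 and 0.18. The 95% intervals ran from -0.26 to 0.51 for *Pdgfrb*, from -0.18 to 0.54 for *Vtn* and from -0.48 to 0.64 for *Acta2*.

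*Myh11* was the member with the unadjusted p under 0.05, with a log2 fold change of -0.77 (SE 0.27, edgeR unadjusted p 0.00573, adjusted p 0.301). Its values of 192 and 266 CPM in control and 176 and 101 CPM in AgRP-Gq;POMC-Gi do not overlap. Here and below, 2 against 2 libraries without overlap reach an exact two-sided permutation p of no less than 0.333. The share of all genes without overlap was not counted. Without AgRP-Gq;POMC-Gi 2 the *Myh11* estimate was -0.28, without AgRP-Gq;POMC-Gi 1 -1.16, and without control 2 -0.50. Cluster 98, where *Myh11* is highest, was a smaller part of mural nuclei in AgRP-Gq;POMC-Gi libraries, and the part of this in the result was not tested. Within cluster 13 the change was -0.41 (SE 0.32, adjusted p 0.922) and within cluster 98 -0.998 (SE 0.50, adjusted p 0.733) or -0.56 without TMM, where the AgRP-Gq;POMC-Gi libraries held 10 and 7 UMIs.

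In cluster 13, 0 of 6 members tested were called, none passed an unadjusted 0.05, and 27 of 5657 genes (0.477%) were called. DESeq2 called 0 members there, beside 2 of 5657 genes (0.0354%). In cluster 98, 0 of 8 members were called by edgeR or DESeq2 and 1 passed an unadjusted 0.05, beside 0 of 6371 genes (0%), 227 of which had an unadjusted p below 0.05. The median log2 fold change of all genes was -0.47 there with TMM scaling, and members are read against that value. *Pdgfrb*, *Rgs5*, *Abcc9* and *Vtn* had estimates of -0.31, -0.16, -0.01 and -0.31 there, which turned to 0.12, 0.26, 0.36 and 0.09 without TMM scaling. *Acta2* and *Tagln* were higher in both AgRP-Gq;POMC-Gi libraries than in either control, with estimates of 0.50 (SE 0.37, adjusted p 0.841) and 0.71 (SE 0.51, adjusted p 0.827) by edgeR, or 0.97 and 1.12 without TMM. *Notch3* in cluster 98 was at 1217 and 1339.6 CPM in control and 945 and 786 CPM in AgRP-Gq;POMC-Gi, without overlap, at a log2 fold change of -1.01 (SE 0.34, adjusted p 0.733), or -0.59 without TMM (adjusted p 0.841). The difference of its group effect between the clusters was -1.11 (SE 0.48, unadjusted p 0.0211, adjusted p 0.965), against a median of -0.43 over all genes. Of the 7 members tested for that difference 0 were called, beside 1 of 5723 genes (0.0175%).

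**Figure D5:**
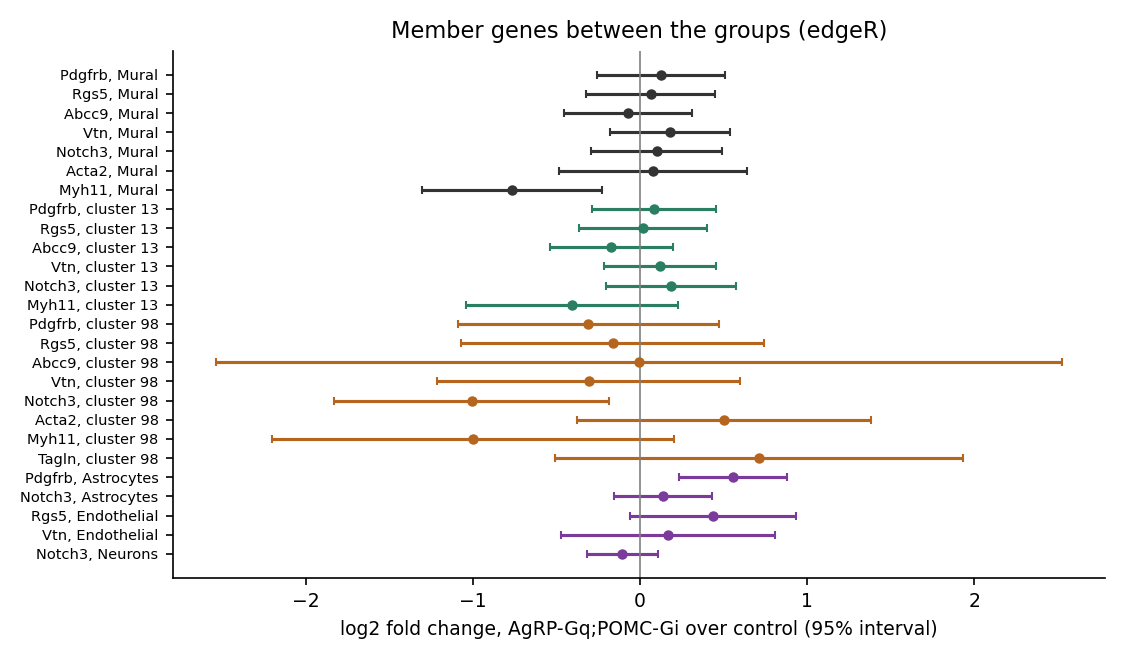
Log2 fold change of AgRP-Gq;POMC-Gi over control with its 95% interval from edgeR, for each member tested in mural nuclei, in clusters 13 and 98, and in astrocytes, endothelium and neurons. Intervals that leave out 0 belong to *Myh11* in mural nuclei, *Notch3* in cluster 98 and *Pdgfrb* in astrocytes, with adjusted p of 0.301, 0.733 and 0.141 by edgeR.

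Outside mural cells 16 combinations of a member and a cell type could be tested, in 8 cell types, and 0 were called by edgeR or DESeq2, with 1 at an unadjusted p below 0.05. Over all genes edgeR called 0.0154% in F13a1.Immune nuclei, 0.626% in astrocytes and 0% in the other 6 types. DESeq2 called 0.768% in astrocytes, 0.0991% in neurons, 0.0251% in fibroblasts and 0% in the remaining types. The pair below the unadjusted level was *Pdgfrb* in astrocytes. It stood at 31.2 and 36.3 CPM in control and 46.0 and 50.2 CPM in AgRP-Gq;POMC-Gi, from 144, 145, 154 and 198 UMIs, and the groups do not overlap. The log2 fold change was 0.56 (SE 0.15, 95% interval 0.24 to 0.88, edgeR unadjusted p 0.0028, adjusted p 0.141), with 8462 genes tested and 875 of them at an unadjusted p below 0.05. It was called with the replicate block (adjusted p 0.00786), a fit that called 426 of the 8462 genes (5.03%), and without a gene filter (adjusted p 0.0440), which called 305 of 23026 (1.32%). Over the other alternatives the adjusted p ran up to 0.767, and DESeq2 gave 0.460. *Notch3* in the same nuclei was at 44.6, 46.9, 48.1 and 49.7 CPM, a log2 fold change of 0.14 (SE 0.13, adjusted p 0.789).

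*Rgs5* in endothelium was at 365 and 295 CPM in control and 518 and 388 CPM in AgRP-Gq;POMC-Gi, a log2 fold change of 0.44 (SE 0.23, adjusted p 0.831), and 0% of the 5884 genes tested there were called (364 at an unadjusted p below 0.05). *Notch3* in neurons had a log2 fold change of -0.11 (SE 0.09, adjusted p 0.826), where 0% of 12115 genes were called by edgeR (667 at an unadjusted p below 0.05). *Tagln* in Tanycyte-like nuclei had a log2 fold change of 0.54 (SE 0.57, adjusted p 0.951) with 0% of 8739 genes called by edgeR (533 at an unadjusted p below 0.05). That estimate turned on the control libraries, 20.5 and 299.8 CPM: without control 2 it was 3.39 (edgeR adjusted p 0.00158, with 47 of 8739 genes called) and without control 1 it was -0.41 (adjusted p 0.806, with 74 called). Each of these fits has 1 control library, which is assumed to vary like the AgRP-Gq;POMC-Gi libraries.

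No gene of the 3 lists was called between groups. In mural nuclei 14 of the 15 pericyte genes, 10 of the 21 contractile genes and 10 of the 18 partners were tested and 0 were called in either direction, with 0, 1 and 1 at an unadjusted p below 0.05 (392 of all 5723 genes). Median log2 fold changes were 0.13, -0.22 and -0.36, beside 0.01 over all 5723 genes. The lowest p among the lists was that of the angiopoietin *Angpt1*, a partner, at -1.28 (SE 0.41, adjusted p 0.177). This gene was higher in cluster 98 (259.9 against 30.6 CPM) in all 4 libraries. Within cluster 98 it was at 415, 353, 189 and 82.7 CPM, or -2.08 (SE 0.58, edgeR adjusted p 0.733). *Tpm1*, a tropomyosin, had the lowest p among the contractile genes, at -0.52 (SE 0.23, adjusted p 0.616). It was at 778 CPM in cluster 98 and 165 in cluster 13, and changed by -0.35 (SE 0.49) and -0.48 (SE 0.28) within them. The median over all genes was -0.47 in cluster 98 and 0.01 in cluster 13. The part of cluster shares in these changes was not tested.

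Genes called between groups in mural nuclei were not members of these 3 lists. The 5 with the lowest p among those higher in AgRP-Gq;POMC-Gi were the phosphodiesterase *Pde4b* (log2 fold change 1.49, SE 0.20, adjusted p 1.22e-07), *Snhg11* (1.59), *Grip1* (2.35), *Grik2* (1.84) and *Nkain2* (1.23), and *Pde4b* stood at 207 and 222 CPM in control against 588 and 587 CPM. The 5 among those lower were the transcription factor *Zbtb16* (-1.64, SE 0.25, adjusted p 2.23e-06; 501, 341, 169 and 108 CPM), the globin *Hbb-bs* (-2.18), *Tsix* (-1.94), *Il34* (-0.81) and *Plcb1* (-1.21). *Tsix*, an antisense RNA of the X chromosome, was at 318, 159, 162 and 0 CPM, from 170, 68, 24 and 0 UMIs. *Plcb1* was at 164, 444, 20.3 and 194 CPM, so the groups overlap for both, and *Hbb-bs* at 93.4, 301, 47.3 and 37.4 CPM. Whether the libraries or groups differ in the sex of their mice was not tested, here or in the other comparisons. A list of 10 neuronal genes, none of them at 0, was read beside these calls. Its summed level in mural nuclei was 1082, 1039, 1197 and 1941 CPM, 5 of its genes were tested and 2, *Meg3* and *Nrg3*, were called higher. *Grik2*, a glutamate receptor subunit, was at 44.8, 72.4, 101 and 269 CPM. Like *Snhg11*, *Grip1* and *Nkain2* it was highest in AgRP-Gq;POMC-Gi 2, the library with the most neuronal RNA. *Grip1* was at 24.3, 37.4, 101 and 183 CPM and *Nkain2* at 314, 175, 426 and 681. Of the 5 genes only *Pde4b* was not highest there. The part of neuronal RNA in these calls was not tested.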

How the data were processed

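Nuclear RNA of 4 hindbrain libraries (10x Genomics 3′ kit, nuclei sorted by DRAQ5) was mapped to GRCm38 (mm10) by the authors with Cell Ranger 7.0.0, and they deposited raw UMI counts per gene and barcode. Per the labels and the study's methods, Seurat 4.3.0 was used and nuclei with under 800 UMIs, under 500 genes or over 10% mitochondrial RNA were removed, as were called doublets. In the deposited table of nuclei 39461 of 44303 barcodes are kept, and cell types and clusters are its own.

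The members and gene lists were chosen with earlier results of these data known. UMIs were summed per library and cell type or cluster. Groups were compared with edgeR 4.0.16 (glmQLFit, TMM, R 4.3.3) in types with at least 5 nuclei in every library, keeping genes detected in 5% or more of the nuclei, by Benjamini-Hochberg at 0.05. The procedure was tested on simulated counts. Alternatives were library size alone, DESeq2 1.42.0, no gene filter, filterByExpr, a replicate block and each library left out. Shares carry exact (Clopper-Pearson) 95% binomial intervals. Thinned shares are expectations at 800 UMIs, and of a count of 0 nothing is claimed beyond the 3 counts it allows.

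Named genes were the 8 members, the 4 highest of each list in mural nuclei and any called there, the 3 most alike genes of each member, and the 5 of lowest p in each direction in mural nuclei. A few genes that this rule names are not reported here. *Kcnj8*, *Myocd*, *Cnn1*, *Pdgfb*, *Dll4*, *Kcnj11*, *Itgb3*, *Jag1*, *Flt1*, *Slc6a13*, *Ranbp3l*, *Dcn*, *Pecam1*, *Cldn5*, *Angpt1*, *Tpm1*, *Meg3*, *Nrg3* and the genes overlapping members were named after their values were seen. Of 32285 genes, 32158 matched GENCODE M21 by identifier. Python 3.11.15 with numpy 2.4.6, scipy 1.17.1, pandas 2.3.3 and matplotlib 3.10.9 was used.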

Additional observations from a re-analysis of the deposited data

How the results depend on the processing

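No member was called in mural nuclei, in cluster 13 or 98, or for the difference between these clusters under any alternative run. Outside mural cells 1 pair was called without a gene filter (*Pdgfrb* in astrocytes, adjusted p 0.0440, beside 1.32% of all genes) and with libraries left out 0 to 1 (*Tagln* in Tanycyte-like nuclei, without control 2). The libraries share only a replicate number, and deviations of same-numbered libraries correlated at 0.0962 in mural nuclei, 0.183 in neurons and 0.345 in oligodendrocytes. With the replicate block 1 pair outside mural cells was called (*Pdgfrb* in astrocytes, adjusted p 0.00786, where the block raised the all-gene count from 53 to 426), and all-gene counts were 41 in mural nuclei, 25 in cluster 13 and 0 in cluster 98. Without the block they were 43, 27 and 0, became 5 in mural nuclei and 2 in cluster 13 with DESeq2 and 50 in cluster 13 with no filter, and ran from 7 to 26, 13 to 59 and 0 to 1 with a library left out. Members over 1.5 times higher in cluster 13 were 3 by CPM and 2 by the thinned share. Where no cause is named, the cause was not tested.

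Of 420 alternative values 32 turned sign, 0 of them of a result with an unadjusted p below 0.05. Left out of this count were *Vtn* in Ependymal, F13a1.Immune, Oligodendrocytes/OPC and Tanycyte-like nuclei. So were *Abcc9* and *Notch3* in fibroblasts, and *Notch3* and *Pdgfrb* in Tanycyte-like nuclei. Without a filter the log2 fold change was -0.0389 for *Rgs5*, -0.00666 for *Notch3* and -0.0207 for *Acta2* in mural nuclei, and -0.0821 for *Rgs5* and -0.0182 for *Pdgfrb* in cluster 13. Without TMM it was -0.0252 for *Rgs5* in cluster 13, and in cluster 98 0.259 for *Rgs5*, 0.356 for *Abcc9*, 0.0938 for *Vtn* and 0.121 for *Pdgfrb*, which filterByExpr gave as 0.244, 0.369, 0.0881 and 0.105. The replicate block gave 0.00600 for *Abcc9* in cluster 98. The difference between clusters without TMM was 0.279 for *Rgs5*, 0.0519 for *Vtn* and 0.0794 for *Pdgfrb*. With a library left out, values ran in mural nuclei from -0.203 to 0.0544 (*Abcc9*), -0.0741 to 0.274 (*Notch3*) and -0.270 to 0.510 (*Acta2*), in cluster 13 from -0.0588 to 0.0856 (*Rgs5*) and -0.0338 to 0.260 (*Vtn*), and in cluster 98 from -0.444 to 0.154 (*Rgs5*) and -6.50 to 0.819 (*Abcc9*). They ran in fibroblasts from -0.187 to 1.19 (*Vtn*) and -0.472 to 0.207 (*Pdgfrb*), and in Tanycyte-like nuclei from -0.409 to 3.39 (*Tagln*). Cluster 98 is limited by its number of nuclei, 7 in AgRP-Gq;POMC-Gi 1.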

Other observations

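Barcodes that the authors did not keep also held the mural genes. Of 4842 such barcodes, 127 (2.62%) held a UMI of at least 3 of *Pdgfrb*, *Rgs5*, *Abcc9*, *Vtn* and *Notch3*, which is 2.48, 3.11, 2.69 and 2.19% by library, against 94.4% of kept mural nuclei and 0.230% of other kept nuclei. Their median was 4617 UMIs, and 5407.5, 4053, 799 and 5967 by library, so that AgRP-Gq;POMC-Gi 1 lay below the 1520.5 of kept mural nuclei and the other 3 above. Among the kept nuclei of other types, 89 held at least 3 of the 5 genes, 33 of them neurons, 28 fibroblasts and 12 endothelial.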
